A study of Saccharomyces cerevisiae with 24 samples.

Results

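The late zones described here are stretches of the budding yeast (Saccharomyces cerevisiae) genome that were late-replicating both in control cells and in cells that over-express limiting replication initiation factors. They hold 781 bins of 1 kb out of 10085 interior bins, or 7.74%, and the whole series holds 11290 bins with the same measurement. The members were chosen by the deposited copy number ratio at 30 min, averaged over 5 consecutive bins (at least 3 of them present on the same chromosome). A bin was kept when it lay more than 50 kb from both chromosome ends and this mean was below 1.6 in sml1Δ and below 1.65 in sml1Δ SSDDCS. The 30 min ratios therefore describe the zones and test nothing.

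Replication was followed by whole-genome sequencing of synchronised W303 haploid cultures of mating type a. Cells were arrested in G1 with alpha factor, given galactose for 30 min and released into S-phase with galactose still present. Both strains carried the rad5 mutation of the W303 background and lacked SML1, whose product inhibits ribonucleotide reductase, so that their nucleotide pools are enlarged. The sml1Δ strain (sml1Δ::URA3) was the control. The sml1Δ SSDDCS strain (sml1Δ with a hygromycin marker, named HphNT in the labels and HphMX in the study's strain list) carried in addition Sld7 and Cdc45 at leu2, Sld3 and Dbf4 at his3 (written SLD3-A and Dbf4-A in the labels), and Sld2 and Dpb11 at trp1, each pair driven by the galactose-inducible PGAL1-10 promoter. The 24 samples were 1 G1 sample and 11 time points between 5 and 60 min for each of the 2 strains. Each strain and time point had 1 library, the G1 library of a strain is the denominator at each of its time points, and no p-values are given.

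A deposited ratio is the reads of a bin at one time point over those in the G1 sample of that strain, multiplied by a bulk factor, the mean copy number of the culture by flow cytometry. A ratio of 1 stands for unreplicated and 2 for fully replicated DNA. The tables hold no read counts, so the depth of the libraries is unknown. As a guide to precision, the noise of 1 bin, from the differences between neighbouring bins, was between 3.85% and 5.67% of the mean of a table.

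Eukaryotic chromosomes are copied from origins that fire at different times in S-phase. Forks travel outwards from each origin and converging forks from neighbouring origins meet in termination zones, so DNA that lies far from any active origin is copied passively and last. In budding yeast an origin is a short autonomously replicating sequence (ARS) that contains a T-rich element, the ARS consensus sequence, bound by the origin recognition complex. Sld2, Sld3, Dpb11, Dbf4, Cdc45 and Sld7 convert licensed helicases at origins into active replisomes, and several of them are present in limiting amounts.

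The 781 bins formed 81 runs of consecutive bins with a median length of 5 kb, from 1 to 37 kb. Of these runs, 20 were 1 bin long and 31 were at least 10 bins long. Runs separated by no more than 4 other bins were joined, which gave 56 zones with a median of 12.5 member bins and a largest zone of 38. The 16 zones of 20 or more member bins held 437 of the 781 bins, and 17 zones held only 1 to 5. The zones touched 468 protein-coding genes.

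The zones lay on 12 of the 16 chromosomes. Chromosome IV held the most, with 194 member bins (14.2% of its interior bins) in 11 zones, followed by chromosome XV with 112 bins (11.6%), VII with 96, XII with 83, II with 79, XIII with 66 and X with 62. Chromosome V held only 7 bins, and chromosomes I, III, VI and VIII held none. Interiors of the small chromosomes I, III and VI are short here, at 122, 204 and 163 bins, because 50 kb was left out at each end, but chromosome VIII has 448 interior bins.

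**Figure D1:**
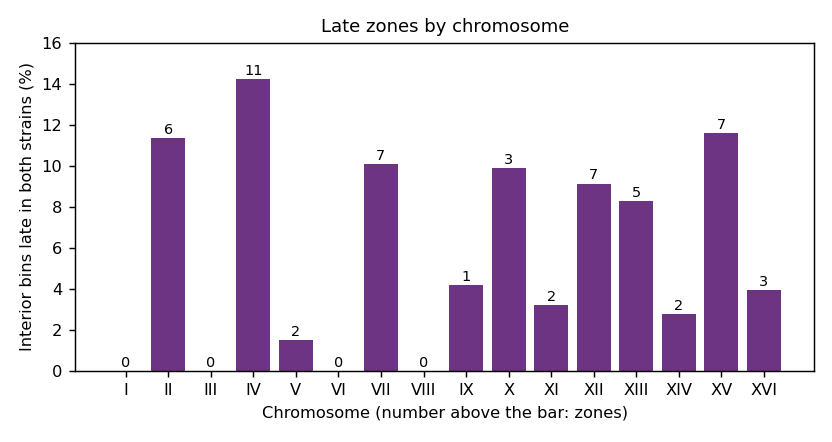
Share of interior 1-kb bins of each chromosome that were late in both strains (y axis, percent), with the number of zones written above each bar. Chromosome IV reached 14.2%, and chromosomes I, III, VI and VIII held no member.

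In sml1Δ, 1540 interior bins were below the threshold (15.3%), and in SSDDCS 1198 were (11.9%). The members are 50.7% of the first list and 65.2% of the second. The median 30 min ratio of the members was 1.43 in sml1Δ, with a lowest value of 1.16, and 1.55 in SSDDCS, with a lowest value of 1.20. At the edge of the rule the highest member had a ratio of 1.5994 in sml1Δ and the nearest bin left out 1.6008, and in SSDDCS these values were 1.6498 and 1.65. Within 0.02 of the threshold 51 bins lay inside and 49 outside in sml1Δ, and 71 inside and 88 outside in SSDDCS, so the borders of the zones are not sharp.

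The sequences printed below are annotated origins beside or inside late zones, and consensus matches inside the zones. They were read from the RefSeq R64 genome, an S288C sequence, since the W303 sequence was not used here. Each is printed 5′ to 3′ on the strand of the match, in lower case with the best match to the 11 letters of the ARS consensus sequence in capitals, and the coordinates are those of the printed stretch. Whether these matches are the functional elements was not examined. The replication time beside each, Trep, is the time at which the 5-bin mean ratio passed 1.5, from a sigmoid from 1 to 2 copies fitted to the 10 time points other than 30 min, with the standard error (SE) of that fit.

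The MSH5 zone (chrIV:155001-189000, 34 member bins) lies between ARS406, on the minus strand at chrIV:123667-123767, and ARS409, on the minus strand at chrIV:212535-212635. Trep in their bins was 20.6 ± 0.363 and 21.7 ± 0.742 min for the control, and 16.2 ± 0.702 and 16.9 ± 0.501 min in SSDDCS. The zone held 1 exact match, at chrIV:156033-156083 on the plus strand near its left border, and that bin had a Trep of 29.2 ± 0.814 and 23.9 ± 1.04 min.
ARS406, 10 of 11 letters: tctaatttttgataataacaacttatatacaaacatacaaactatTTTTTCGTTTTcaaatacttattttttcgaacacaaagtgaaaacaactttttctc
ARS409, 11 of 11 letters: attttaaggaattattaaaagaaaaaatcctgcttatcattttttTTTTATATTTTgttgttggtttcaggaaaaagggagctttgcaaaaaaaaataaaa
Match inside the MSH5 zone, 11 of 11 letters: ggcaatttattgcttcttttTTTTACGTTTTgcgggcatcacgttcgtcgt

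The AMA1 zone (chrVII:928001-964000, 35 member bins) lies between ARS737, on the plus strand at chrVII:888370-888470, and ARS733, on the minus strand at chrVII:977839-977939. Trep in their bins was 18.4 ± 0.446 and 22.97 ± 0.597 min for the control and 16.9 ± 0.491 and 20.2 ± 0.714 min in SSDDCS. The zone held 4 exact matches, and the match at chrVII:952421-952471 on the plus strand lies deepest in it, in a bin with a Trep of 30.0 ± 0.824 and 27.8 ± 1.38 min. Its match to the consensus is 1 letter better than that of ARS737. In SSDDCS the nearest Trep minimum to the left of the zone was not at ARS737 but 29.0 kb from any annotated origin.
ARS737, 10 of 11 letters: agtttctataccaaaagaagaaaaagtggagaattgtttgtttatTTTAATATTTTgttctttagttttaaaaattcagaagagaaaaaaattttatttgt
ARS733, 11 of 11 letters: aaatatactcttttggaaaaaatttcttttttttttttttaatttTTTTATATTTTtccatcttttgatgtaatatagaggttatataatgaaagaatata
Match inside the AMA1 zone, 11 of 11 letters: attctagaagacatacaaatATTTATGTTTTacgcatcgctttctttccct

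The RRP5 zone (chrXIII:707001-739000, 32 member bins) lies between ARS1325, on the plus strand at chrXIII:649320-649420, and ARS1327, on the minus strand at chrXIII:758360-758460. Trep in their bins was 20.2 ± 0.413 and 22.6 ± 0.397 min for the control and 17.6 ± 0.698 and 18.4 ± 0.526 min in SSDDCS. Both exact matches inside the zone, at chrXIII:713871-713921 on the minus strand and chrXIII:731608-731658 on the plus strand, lie where Trep was 31.8 ± 1.13 and 31.7 ± 1.17 min for the control and 26.8 ± 0.746 and 29.4 ± 1.25 min for SSDDCS.
ARS1325, 10 of 11 letters: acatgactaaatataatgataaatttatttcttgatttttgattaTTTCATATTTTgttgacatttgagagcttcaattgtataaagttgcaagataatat
ARS1327, 11 of 11 letters: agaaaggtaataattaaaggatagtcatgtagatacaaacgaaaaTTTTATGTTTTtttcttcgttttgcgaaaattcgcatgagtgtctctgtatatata
First match inside the RRP5 zone, 11 of 11 letters: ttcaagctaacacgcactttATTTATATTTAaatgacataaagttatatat
Second match inside the RRP5 zone, 11 of 11 letters: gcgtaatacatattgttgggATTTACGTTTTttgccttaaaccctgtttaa

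Exact matches were also present in the late zones. A match on either strand was found in 39 of the 781 member bins (4.99%) and in 6.12% of the other interior bins, and 124 of the 352 annotated nuclear origins (35.2%) hold one. The best match of the remaining origins is incomplete, as in ARS406, ARS737 and ARS1325.

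Only 1 zone held an annotated origin. This is ARS712 (chrVII:241085-241353), in a small zone of 3 member bins (chrVII:239001-243000) next to HUL5, which encodes a ubiquitin ligase that acts with the proteasome. Its whole annotated sequence is shown because it is the single annotated origin inside the zones, and its best match is incomplete, with 10 of 11 letters. Trep over ARS712 was 28.95 ± 0.569 min in the control and 22.97 ± 0.655 min in SSDDCS, or -5.98 min apart. The zone lies at the edge of the rule, with a mean 5-bin ratio at 30 min of 1.57 in sml1Δ and 1.64 in SSDDCS. The SSDDCS Trep over ARS712 was the earliest of all member bins and below the 75th percentile of the interior, 23.7 min. By this fit the origin was therefore not late in SSDDCS.
ARS712, 10 of 11 letters: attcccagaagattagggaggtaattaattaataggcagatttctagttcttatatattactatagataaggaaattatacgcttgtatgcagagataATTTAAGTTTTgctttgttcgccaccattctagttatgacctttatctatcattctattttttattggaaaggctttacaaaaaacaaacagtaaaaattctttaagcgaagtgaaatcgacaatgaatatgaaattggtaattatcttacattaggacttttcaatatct

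In sml1Δ the course of the member bins left that of the rest of the interior between 15 and 20 min. In SSDDCS a small gap was present at 15 min, with medians of 1.25 and 1.27. At that time 72.0% of the members lay below the median of the rest in SSDDCS, and 51.6% in sml1Δ. In sml1Δ the median ratio of the 781 bins was 1.01, 1.02, 1.14, 1.28, 1.26, 1.43, 1.67, 1.804, 1.89, 1.94 and 1.98 at 5, 10, 15, 20, 25, 30, 35, 40, 45, 50 and 60 min. In SSDDCS it was 1.02, 1.105, 1.25, 1.24, 1.31, 1.55, 1.72, 1.83, 1.90, 1.94 and 1.98 at the same times. The median of the other interior bins had reached 1.64 in sml1Δ and 1.70 in SSDDCS at 25 min, when the members were at 1.26 and 1.31. By 60 min the medians of members and rest were 1.979 and 1.995 in the control and 1.980 and 1.997 in SSDDCS.

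**Figure D2:**
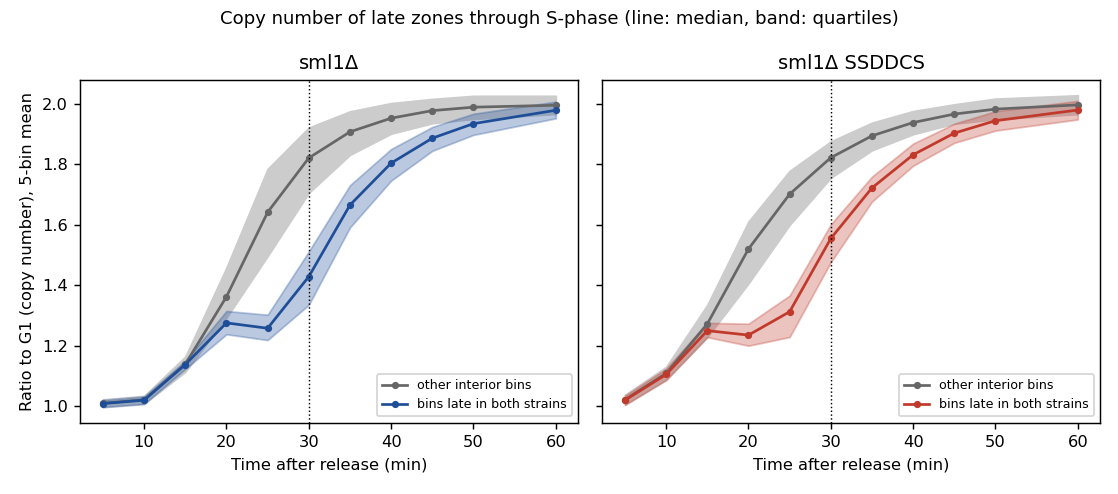
Ratio to G1 as a 5-bin mean (y axis, copies) against minutes after release (x axis) in sml1Δ and SSDDCS, for the 781 late bins (coloured) and the other interior bins (grey). Lines are medians over bins, bands run from the lower to the upper quartile, and the dotted line marks the 30 min tables that chose the bins. The median of the late bins stays between 1.24 and 1.31 at 20 and 25 min in both strains and reaches 1.98 at 60 min.

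Late bins passed through an interval in which their ratio did not increase. In sml1Δ, 456 of the 781 bins (58.4%) had a lower ratio at 25 than at 20 min, against 2.77% of the rest of the interior. In SSDDCS this interval came earlier, with 473 bins (60.6%) lower at 20 than at 15 min, against 3.54% of the rest. From 20 to 25 min a lower ratio at the later time was found in 192 bins of SSDDCS (24.6%, against 0.591% of the rest), and the mean ratios of the CTA1 and GEA1 zones, given with those zones, were also lower at 25 than at 20 min. The bulk factor increased over these intervals, from 1.366 to 1.599 in sml1Δ and from 1.28 to 1.484 in SSDDCS. The factor scales all bins of a table alike, and its part in the early plateau of the late bins was not tested.

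To remove the bulk factor, each 5-bin mean was divided by the mean of its table. The median relative ratio of the member bins was lowest at 25 min, when it was 0.785 for the control and 0.788 for SSDDCS. At 20 min the control stood at 0.933 and SSDDCS at 0.830, so in minutes after release the late bins were behind the genome mean sooner in SSDDCS. The bulk factor was then 1.366 and 1.484, and a bin not yet copied has a lower relative ratio in the more replicated culture. How much of the gap this accounts for was not tested. The values were 0.932 and 0.949 at 40 min and 0.991 and 0.992 at 60 min. Relative to the rest of its own genome the lag of these bins thus opened earlier after release in SSDDCS. The median was closer to 1 in SSDDCS from 35 min on. The thresholds of the rule, which differ between the strains, bear on this comparison.

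The lag outlasted the 30 min tables. In sml1Δ a relative ratio below 0.9 was found at 25 min in 769 of 780 member bins (98.6%, against 23% of all interior bins), at 35 min in 454 of 781 (58.1%, against 6.36%) and at 40 min in 184 (23.6%, against 2%). In SSDDCS it was found at 25 min in 766 of 781 bins (98.1%, against 18%), at 35 min in 260 (33.3%, against 3.13%) and at 40 min in 49 (6.27%, against 0.536%). These tables share the G1 library and the time course with the 30 min tables. With the 5 min table of each strain in place of G1 as denominator, 689 of the bins chosen by the rule were also among the 781.

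The 41 zones of 5 or more member bins were followed one by one. At 35 min 25 of them had a relative ratio below 0.9 in sml1Δ and 11 in SSDDCS, and at 40 min 6 and 0. A relative ratio below 0.95 was left at 45 min in 12 zones in sml1Δ and 2 in SSDDCS, at 50 min in 4 and 3, and at 60 min in 0 and 1. The zone ratios at 60 min spanned 1.92 to 2.05 in sml1Δ and 1.89 to 2.04 in SSDDCS. The last sample therefore found these zones close to fully replicated in both strains.

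The strain with the higher ratio changed with time. Of the 41 zones, all had a higher ratio in SSDDCS at 10 and at 15 min, but this held for only 9 at 20 min, then for 29 at 25, 30 at 35 and 21 at 60 min. At 10 and 15 min the bulk factor was also higher in SSDDCS, at 1.107 and 1.28 against 1.021 and 1.139. The relative scale divides out the factor, but it still depends on how much of the genome has been copied. On that scale SSDDCS was lower in 25 of 41 zones already at 5 min, in 26 at 10 min and in 35 at 15 min. SSDDCS was the lower strain in 41 of 41 zones at 20 min, in 20 at 25 min, in 11 at 35 min and in 20 at 60 min. At 20 min the zone ratios ranged from 1.13 to 1.36 in sml1Δ (median 1.27) and from 1.15 to 1.32 in SSDDCS (median 1.23), so the strains overlapped.

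Trep placed the late bins near 30 min. Over the 781 bins the control had a median of 30.4 min (from 25.7 to 36.2) and SSDDCS one of 28.4 min (from 22.97 to 34.7). The median over the other interior bins was 22.9 and 20.4 min. Since all time points of a strain share its G1 library and belong to 1 time course, Trep is not independent of the rule even without the 30 min tables, and the lateness of these values is a description. The fits were less precise in the zones, with a median SE of 0.927 min for the control and 1.07 min for SSDDCS against 0.470 and 0.586 min elsewhere.

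The sigmoids fitted to the late bins were also wider. The fitted rise from 25% to 75% of the sigmoid took a median of 15.9 min for the control and 16.9 min for SSDDCS, against 9.22 and 11.9 min in the rest of the interior. The difference between the strains was thus 0.772 min in the late bins by the median per bin and 2.40 min elsewhere. A single sigmoid describes a course with an early plateau only roughly. At 15 min the members already had median ratios of 1.14 in the control and 1.25 in SSDDCS. Their relative ratios were then 0.998 and 0.975. Whether the late bins took longer to be copied was not tested.

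Most late bins had an earlier Trep in SSDDCS, as did most of the interior. The median Trep difference (SSDDCS minus sml1Δ) of the member bins was -1.75 min, with a 10th percentile of -4.55 and a 90th percentile of 0.914 min, and that of the other interior bins was -2.25 min. A Trep at least 1 min earlier in SSDDCS was found in 495 of 781 member bins (63.4%), against 69.4% of all interior bins. A Trep at least 1 min later was found in 73 (9.35%), against 7.87%. The SD of 1 such difference, from neighbouring bins, was 0.501 min. Trep was fitted to 5-bin means, which neighbouring bins largely share, so this SD understates the error. The median SE of a fit in the members was 0.927 min for the control and 1.07 min for SSDDCS. A difference carries the error of both fits, so the 1 min call does not resolve single member bins. Both shares of the members are near those of the interior.

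The sign of this difference rests on the bulk factors, which were measured by flow cytometry. When both strains were given the control's factors, the median difference was 0.0564 min in the members and -0.00802 min in the other interior bins. This setting gives both cultures the same mean copy number at each time. The loss of a typical difference thus follows from the setting and does not test the measured factors. With a scale fitted per bin and strain the median difference was -1.03 min in the members. By the zones, 35 of the 41 with 5 or more member bins were earlier in SSDDCS and 6 were later, with a median of -1.62 min and a range from -5.18 to 1.958 min. Of these, 14 were earlier by more than 2 SE of the fits and 0 were later by more than 2 SE. The SE covers the scatter of the time points around the sigmoid, and not the spread between cultures, which 1 time course per strain cannot give.

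Whether the late zones kept the same order of Trep in both strains could not be settled. Across the 41 zones, Pearson's r between Trep in sml1Δ and in SSDDCS was 0.0364 and Spearman's rho was -0.0331. The rule restricts both axes to late values, which lowers such coefficients, and neighbouring zones may share an origin. Over the 56 zones the quartiles of Trep were 29.5 and 30.7 min in sml1Δ and 27.3 and 28.9 min in SSDDCS. The median SE was 0.824 and 0.970 min. With a spread so near the error of the fits, the coefficients cannot show whether the order was shared. Most of the 41 zones had a Trep between 29 and 32 min in sml1Δ.

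**Figure D3:**
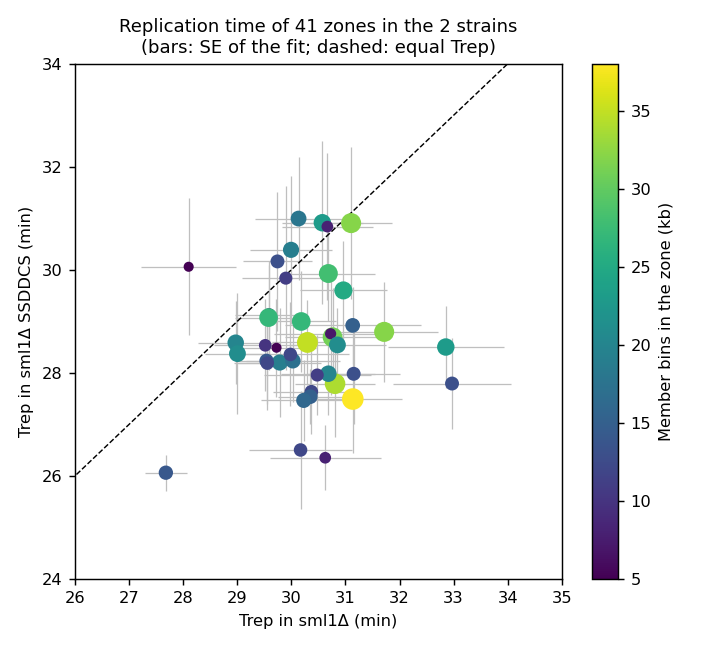
Trep of the 41 zones of 5 or more member bins in sml1Δ (x axis, min) and SSDDCS (y axis, min), with the SE of each fit as bars and the number of member bins as size and colour of the point. The dashed line marks equal Trep, and 35 zones lie below it, on the side that is earlier in SSDDCS.

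The HST4 zone (chrIV:827001-866000) was the largest, with 38 member bins and 25 protein-coding genes. HST4 (YDR191W, chrIV:842337-843449) encodes a deacetylase of the sirtuin family that acts on histone H3, and its coding sequence overlaps the latest bin of the zone. In sml1Δ the zone had a mean ratio of 1.01, 1.02, 1.14, 1.32, 1.35, 1.36, 1.57, 1.71, 1.83, 1.90 and 1.98 from 5 to 60 min. In SSDDCS it had 1.04, 1.14, 1.30, 1.32, 1.35, 1.49, 1.68, 1.79, 1.91, 1.97 and 2.04. The strains had nearly the same ratio at 20 and 25 min, and SSDDCS was higher from 30 min on. The control had a zone Trep of 31.1 ± 0.902 min and SSDDCS one of 27.5 ± 1.05 min, which gives a difference of -3.64 ± 1.38 min. The zone lies between ARS425 and ARS427, 93.2 kb apart. Unlike the origins beside the MSH5, AMA1 and RRP5 zones, these had little or no Trep difference, at -0.937 min for ARS425, where the SSDDCS fit had an SE of 1.62 min, and 0.00791 min for ARS427.

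In the AMA1 zone the strains were closer. AMA1 (YGR225W, chrVII:945145-947019) encodes a meiosis-specific activator of the anaphase-promoting complex. The zone had mean ratios of 1.01, 1.02, 1.14, 1.27, 1.27, 1.39, 1.65, 1.8025, 1.88, 1.93 and 1.97 in sml1Δ. In SSDDCS they were 1.01, 1.102, 1.24, 1.26, 1.31, 1.52, 1.70, 1.84, 1.90, 1.93 and 1.99. SSDDCS was the lower strain at 20 min and was ahead by 25 min. Its zone Trep was 30.3 ± 0.651 min for the control and 28.6 ± 0.830 min for SSDDCS, with a difference of -1.71 ± 1.06 min that is less than 2 SE.

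The MSH5 zone was 34 consecutive bins without a break. MSH5 (YDL154W, chrIV:178334-181039) encodes a MutS homologue that promotes crossovers in meiosis. Its mean ratio was 1.01, 1.03, 1.15, 1.30, 1.31, 1.35, 1.59, 1.74, 1.85, 1.92 and 1.98 in sml1Δ and 1.02, 1.12, 1.28, 1.29, 1.31, 1.53, 1.74, 1.83, 1.91, 1.94 and 1.98 in SSDDCS. The courses met at 20 and 25 min and again at 60 min. The Trep difference was -3.02 ± 1.27 min, from 30.8 ± 0.747 to 27.8 ± 1.03 min. The latest bin of the SSDDCS profile lay 16 kb to the right of that of sml1Δ, whereas the Trep differences of its flanking origins were -4.42 min (ARS406) and -4.73 min (ARS409).

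The RRP5 zone was among the latest of the large zones in sml1Δ. RRP5 (YMR229C, chrXIII:725934-731123) encodes a factor for ribosomal RNA processing. The zone had mean ratios of 1.01, 1.03, 1.14, 1.33, 1.29, 1.30, 1.54, 1.70, 1.84, 1.90 and 1.98 in sml1Δ, and 1.02, 1.11, 1.26, 1.27, 1.28, 1.51, 1.70, 1.804, 1.90, 1.94 and 1.99 in SSDDCS. From 20 to 30 min the ratio hardly moved in sml1Δ, while in SSDDCS it increased between 25 and 30 min. The Trep was 31.7 ± 1.00 min and 28.8 ± 0.971 min, a difference of -2.92 ± 1.39 min. Its annotated origins are 109 kb apart, and ARS1325 is 77.1 kb from the latest bin. The Trep profile had a nearer minimum on that side, at 22.9 min (control) and 18.3 min (SSDDCS), which lay 37.1 and 40.1 kb from any annotated origin. The interval between the Trep minima around the zone was 70 kb in both strains.

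The CTA1 zone (chrIV:949001-981000, 32 member bins) had one of the smallest Trep differences between the strains. CTA1 (YDR256C, chrIV:968133-969680) encodes the peroxisomal catalase, and its neighbour RKM4 (YDR257C, chrIV:969990-971474) encodes a methyltransferase that acts on a ribosomal protein. Mean ratios were 1.00, 1.02, 1.13, 1.26, 1.22, 1.34, 1.62, 1.79, 1.90, 1.93 and 1.97 in sml1Δ and 1.02, 1.12, 1.28, 1.27, 1.18, 1.37, 1.60, 1.76, 1.87, 1.94 and 1.97 in SSDDCS. SSDDCS was lower at 25 min, higher at 30 min and lower again at 35 to 45 min. The Trep was 31.1 ± 0.761 and 30.9 ± 1.4827 min, and the difference of -0.198 ± 1.67 min leaves room for changes of either sign. In the latest bin SSDDCS was the later strain, at 34.7 min against 32.3 min.

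The other 5 of the 10 largest zones had Trep differences between -2.07 and -0.506 min, each less than 2 SE. On chromosome II the zone over ATG12 (chrII:657832-658392), a ubiquitin-like protein of autophagy, and PYC2 (chrII:658707-662249), a pyruvate carboxylase, had a difference of -2.07 ± 1.30 min. On chromosome X the zone over SIP4 (chrX:265926-268415), an activator of gluconeogenic genes, had -1.36 ± 1.24 min. On chromosome XV the zone over EXO1 (chrXV:392416-394524), an exonuclease in DNA repair, and AKR2 (chrXV:394837-397086) had -1.19 ± 1.17 min. The zone over PNT1 (chrXV:821023-822294), a mitochondrial inner membrane protein, and HRK1 (chrXV:822588-824867), a kinase that regulates the plasma membrane proton pump, had -0.756 ± 1.27 min. The zone over VHT1 (chrVII:618077-619858), the biotin transporter, had -0.506 ± 1.18 min. All 5 thus pointed the same way, none by more than 2 SE, and so did the median of the other interior bins, at -2.25 min.

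The latest zone in sml1Δ was the SLH1 zone (chrVII:1027001-1040000, 13 member bins). SLH1 (chrVII:1031791-1037694) encodes an RNA helicase that acts on stalled ribosomes, and EFG1 (chrVII:1037800-1038501) a ribosomal RNA processing factor. Mean ratios were 1.01, 1.03, 1.14, 1.33, 1.25, 1.23, 1.51, 1.69, 1.7996, 1.85 and 1.95 in sml1Δ. In SSDDCS they were 1.04, 1.1003, 1.26, 1.18, 1.37, 1.565, 1.75, 1.86, 1.93, 1.95 and 1.99. The order of the strains turned between 20 and 25 min, and SSDDCS was higher from 25 min on. The control had a Trep of 32.97 ± 1.08 min and SSDDCS of 27.8 ± 0.889 min, and the difference of -5.18 ± 1.401 min was the most negative of the 41 zones.

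In a few zones the Trep was later in SSDDCS, by less than 2 SE. Those given here were picked out after their values were seen. The GEA1 zone (chrX:484001-508000, 23 member bins), over the gene of an exchange factor for ADP-ribosylation factors, had the lowest 30 min mean of the 41 zones in SSDDCS, at 1.34 against 1.43 in sml1Δ. It had mean ratios of 1.02, 1.02, 1.13, 1.18, 1.19, 1.43, 1.72, 1.83, 1.92, 1.997 and 2.02 in sml1Δ. In SSDDCS it had 1.04, 1.12, 1.29, 1.26, 1.17, 1.34, 1.60, 1.74, 1.90, 1.95 and 2.02. SSDDCS was the higher strain up to 20 min and the lower one from 25 to 50 min. Its Trep was 30.6 ± 0.743 and 30.9 ± 1.59 min. The UBR2 zone (chrXII:186001-194000, 8 member bins), over a ubiquitin ligase gene, had 30 min means of 1.56 in sml1Δ and 1.38 in SSDDCS and a Trep difference of 0.173 ± 1.66 min.

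The latest zone in SSDDCS by this fit was a single bin, chrXII:981001-982000, at 37.3 ± 2.58 min against 30.9 ± 1.88 min for the control. It overlaps the end of a Ty2 retrotransposon and its long terminal repeat, has no ratio at 25 min in sml1Δ and touches no protein-coding gene. It was the only zone later in SSDDCS by more than 2 SE. With 5-bin means Trep there was 30.6 min for the control and 28.6 min for SSDDCS, so the value rests on the single bin.

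Around the zones Trep formed V-shaped valleys, with earlier values on both sides. Aligned at the latest bin of each of the 56 zones, the control profile had a median Trep of 30.7 min at the centre, 24.5 min at 20 kb to the left and 24.8 min at 20 kb to the right, and 21.7 and 22.6 min at 40 kb. In SSDDCS it was 29.2 min at the centre, 22.7 and 22.3 min at 20 kb, and 19.1 and 19.4 min at 40 kb. The latest bin was defined by the mean Trep of the strains, which favours late values at distance 0.

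**Figure D4:**
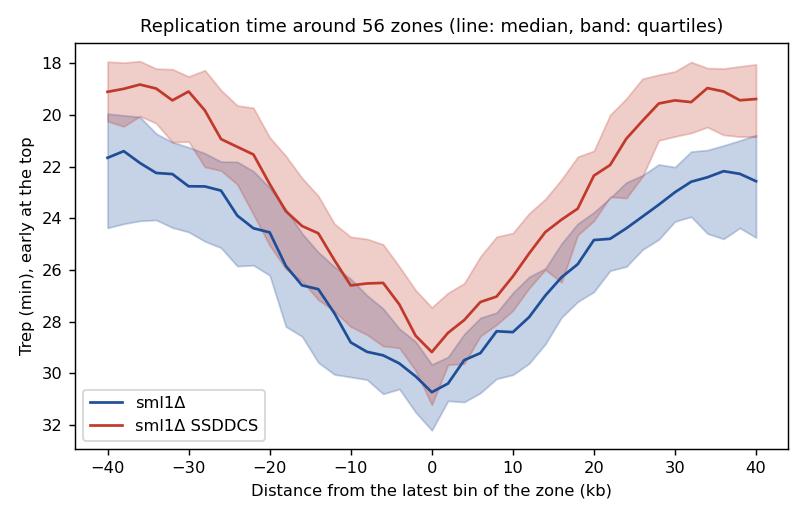
Median Trep (y axis, min, early at the top) against distance from the latest bin of the zone (x axis, kb) in sml1Δ and SSDDCS, with bands from the lower to the upper quartile over up to 56 zones. Both strains have their latest value at 0 kb, at 30.7 and 29.2 min.

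The latest bin of each strain, sought up to 10 kb beyond a zone, often lay at a similar place. It moved by a median of 4.5 kb, by no more than 2 kb in 16 zones, by no more than 5 kb in 37 and by 10 kb or more in 11 of the 56. Some neighbouring zones share a latest bin in this search, so these counts are not of separate places. The valleys were wide. The distance between the Trep minima on either side had a median of 74 kb in sml1Δ (49 intervals) and 63 kb in SSDDCS (51 intervals), against 45 kb (117 intervals) and 37 kb (158 intervals) for intervals with no member bin. The Trep gradient of the flanks was 0.296 and 0.383 min per kb around the zones and 0.255 and 0.338 min per kb elsewhere. The intervals with members thus differed more in width than in gradient, and this is a description, since the rule picked the latest places.

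Among the zones themselves, lateness was set against width. Over 41 zones the latest Trep and the distance between minima had a Pearson's r of -0.116 in sml1Δ and 0.219 in SSDDCS, with Spearman's rho of -0.110 and 0.364. The rule picked late places, and over the 56 zones the quartiles of the latest Trep in sml1Δ were 30.3 and 32.8 min. So narrow a range lowers such coefficients, which cannot show whether width orders lateness. The flanking minima had a median Trep of 21.03 min in the control, against 17.4 min in SSDDCS. Of 94 flanking minima in sml1Δ, 70 (74.5%) lay within 5 kb of an annotated origin, against 75.6% of all 229 interior minima. In SSDDCS this was 62 of 96 (64.6%), against 73.5% of 253. In all, 58 flanking minima were shared within 5 kb, which is 61.7% of those in sml1Δ and 60.4% of those in SSDDCS.

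Member bins lay far from annotated origins. The median distance to the nearest one was 30.4 kb, against 10.0 kb in the rest of the interior, and only 4 of the 781 bins lay within 5 kb of an origin, against 27.3% of the rest. Beyond 20 kb lay 701 of the 781 bins. The interval between the annotated origins on either side had a median of 78.1 kb, against 49.3 kb. On a scale from 0 at an origin to 0.5 at the middle of the interval, the members had a median of 0.404 and the rest 0.233. The widest interval, 152 kb between ARS1513 and ARS1501, holds the EXO1 zone. Both profiles had an early minimum inside this interval, at 18.4 min for the control and 15.9 min for SSDDCS, 57.3 and 53.3 kb from any annotated origin, and the Trep minima around the zone were 96 and 100 kb apart. Annotated positions were not used by the rule, but no test against chance was made because neighbouring bins are not independent.

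**Figure D5:**
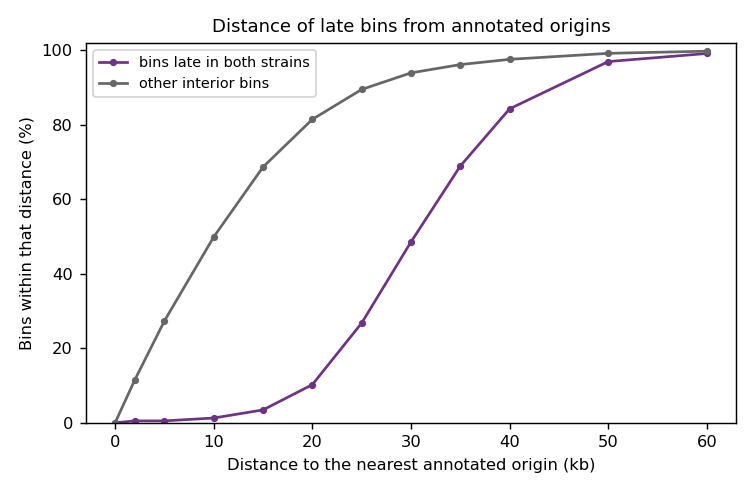
Percentage of bins (y axis) that lie within a given distance of the nearest annotated origin (x axis, kb), for the 781 late bins and the other interior bins. At 10 kb the curves are at 1.28% and 49.9%, and at 30 kb at 48.5% and 93.9%.

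Other features differed less. No member bin touched a centromere, and the nearest lay 35.6 kb from one, with a median distance of 278 kb against 201 kb. A tRNA gene was found in 12 member bins (1.54%, against 2.84% of the rest), a long terminal repeat in 12 (1.54%, against 2.62%), a Ty retrotransposon in 5 (0.640%, against 0.494%), a ribosomal protein gene in 9 (1.15%, against 2.19%) and a histone gene in 0 (against 0.140%). Genes of 4 kb or longer touched 95 member bins (12.2%, against 10.5%). Median GC content was 37.4% and 38.0%.

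Gene orientation did not set the zones apart. With fork direction read from the slope of Trep, 168 of 329 genes in the zones (51.1%) were transcribed in the direction of the fork in sml1Δ and 173 of 340 (50.9%) in SSDDCS. In the rest of the interior the shares were 52.2% and 51.2%. Genes near the bottom of a valley, where the slope is too small to give a direction, were left out.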

How the data were processed

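The authors mapped the reads to the R64 (sacCer3) genome with Bowtie2 version 2.2.6, counted them in 1-kb bins and divided each time point by that strain's G1 sample. The 22 deposited tables hold this ratio after multiplication by the bulk factor, itself a deposited ratio. Tables held 11310 to 11322 bins. The submitters' processing notes also name SAMtools 1.7.2 and bedtools 2.26.0. Origins, genes and sequences came from the RefSeq R64 annotation, in which chromosome names and lengths matched. Coordinates are 1-based.

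Sigmoids from 1 to 2 copies were fitted by least squares to the 5-bin mean ratios of 10 time points, with Python 3.11.15 and numpy 2.4.6, and the fit was tested on simulated data. For a zone the ratios of its member bins were averaged before the fit. A flanking minimum was the nearest local Trep minimum (lowest within 10 kb on either side) at least 2 min earlier than the latest bin. Fork direction needed a Trep slope of at least 0.05 min per kb over 10 kb.

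Zones named were the 10 with most member bins, the latest in each strain, and any that held an annotated origin or centromere, each called by a gene in its latest bin. The rule, lists and members were chosen with earlier results of these data known. Alternatives covered membership, joining of runs, the fit, the bulk factors and leaving out each time point. Interpolation, the fit without 10, 15 and 20 min, and zones of 5 or more bins were added after seeing the data.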

Additional observations from a re-analysis of the deposited data

How the results depend on the processing

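Of 140 alternative values, 126 kept their direction and moved by no more than the error of the value (the median SE of a bin for Trep, the noise of a 5-bin mean for ratios, the 95% Wilson interval for the share), or by no more than 1.5 times for counts and distances, 13 moved further and 1 changed sign. Within those limits the number of zones ranged from 43 (sml1Δ threshold in both strains) to 81 (runs not joined) and the number of runs from 56 (mean over 9 bins) to 115 (mean over 3 bins), and a scale fitted per bin and strain gave a median difference of -1.03 min. Using the sml1Δ bulk factors in both strains gives the cultures the same mean copy number, so it removes any difference in bulk replication. It gave a median Trep of 30.2 min in SSDDCS and a median difference of 0.0564 min (that of the other interior bins was -0.00802 min). The share of bins later in SSDDCS was then 33.2% (33.02% in the other interior bins). That share was also 12.6% with the sml1Δ threshold in both strains, 24.1% with single-bin fits, 22.9% with a scale fitted per bin and strain, 14.3% with an interpolated crossing of 1.5 copies and 17.2% without the 10, 15 and 20 min tables. Of these settings, the share in the other interior bins was worked out only for the interpolated crossing, where it was 7.25%, below that of the members. The remaining shares therefore cannot be set against the interior. With the interpolated crossing the median difference of the other interior bins was -2.60 min, against -1.63 min in the members. The median Trep in SSDDCS was 29.6 min with the interpolated crossing, and without the 10, 15 and 20 min tables it was 29.7 min, with 31.4 min in sml1Δ. Leaving out 1 time point at a time gave medians from 29.4 (without 25 min) to 31.05 min in sml1Δ and from 27.4 to 29.1 min in SSDDCS, a median difference from -2.58 to -1.26 min and a share from 6.27% to 15.5%. The share was lowest without 20 min and highest without 15 min. It was not worked out for the other interior bins here either, and the causes were not tested. Membership by rank on the 25 and 35 min tables gave 854 bins, of which 719 were among the 781, and 18 of the 781 lay over repeats or tRNA genes. No paired analysis was possible because a strain had only 1 sample at any time. Depth is unknown, so counting error could not be given.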

Other observations

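Further zones were picked out after their values were seen. The zone over RPS22B, a ribosomal protein gene, and MDM30, which encodes an F-box protein of mitochondrial fusion (chrXII:843001-866000, 23 member bins), went from a Trep of 32.9 min for the control to 28.5 min for SSDDCS, with a difference of -4.35 ± 1.34 min. The zone over SSF2, a ribosome assembly gene (chrIV:1088001-1096000, 8 member bins), had a difference of -4.27 ± 1.20 min. The zone over CDC40, a splicing factor gene (chrIV:1202001-1207000, 5 member bins), had the largest positive difference of the 41 zones, 1.958 ± 1.59 min, which is within 2 SE.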
